A study of Mus musculus with 8 samples.

Results

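Genes of cholesterol synthesis, uptake, efflux, storage and control were compared between livers of 8-week and 80-week male mice taken 8 h after acetaminophen. Members were chosen by function, as the enzymes of the sterol pathway, the regulators and carriers of cholesterol inside the cell, the transporters and receptor that move it across the plasma membrane, and the enzymes that esterify it. The choice was made with earlier results of these data known. Of 31 listed genes, 30 had an array probe of that name, and all 30 were measured above background on all 8 arrays and tested among 17567 genes. They comprised 17 synthesis genes, 5 genes of control and intracellular transfer, 5 of uptake and efflux and 3 of esterification.

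Cholesterol is built from acetyl-CoA in a long chain of reactions, first through mevalonate and isoprenoid units to squalene and then through lanosterol to the finished sterol. The transcription factor SREBP-2, the product of Srebf2, is carried by SCAP from the endoplasmic reticulum to the Golgi for cleavage when membrane sterol is low, and the INSIG proteins hold the complex back when sterol is plentiful. In the liver, hepatocytes make cholesterol, take it up from lipoproteins, convert it to bile acids and secrete it into bile, while excess oxysterol turns on efflux transporters through the liver X receptors.

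The data were Cy3 single-colour arrays of total liver RNA from 2 groups of 4 male mouse samples, one aged 8 weeks and one aged 80 weeks, all taken 8 h after acetaminophen (spelled "Acetaminophe" in the labels). The drug dose, the strain and whether each sample came from its own animal were not given in the sources read for this work. The p-values may thus reflect only technical spread among these 8 samples. Livers without the drug were not analysed here, so an age difference present before the drug and one in the response to it cannot be told apart. The arrays shared 1 slide and 1 scan, and since the young group filled its first row and the old group its second, slide row and age cannot be told apart either.

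Between 24540 and 28540 probes were well above background on each array, and no spot was saturated. Every value below is a log2 intensity relative to its array's 75th percentile, and every difference is 80-week minus 8-week. On the first principal component, which held 49.1% of the variance, 8-week replicates 1 and 2 lay at -61.3 and -99.3, 8-week replicates 3 and 4 at 10.2 and 12.3, and the 80-week arrays between 17.0 and 47.5. Results that rest on the first pair are therefore also given without them. The 8 hepatocyte markers tested were above background on all arrays, and their mean, centred by gene, ran from -0.73 (8-week replicate 2, the lowest) to 0.39 in the 8-week arrays and from -0.18 to 0.36 in the 80-week arrays. Their summed linear level, relative to the same percentile, ran from 2658 to 4945 and from 3463 to 5674 in the 2 groups. In whole liver, fewer cells of a type and less RNA per cell cannot be told apart.

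No member passed the test for a difference between ages. Over all genes 63 passed at an adjusted p under 0.05 (limma, Benjamini-Hochberg), which is 0.359%, with 58 higher (0.33%) and 5 lower (0.0285%) in the 80-week livers. The members' adjusted p-values ran from 0.226 to 0.860, and 0 of 30 is near that background share. At an unadjusted p under 0.05, 9 of 30 members were higher in 80-week livers and 0 were lower, where 7.92% of all genes were higher and 6.14% lower. The 9 were Hmgcs1, Fdft1, Nsdhl, Hsd17b7, Stard4, Abcg5, Abcg8, Scarb1 and Soat2. Without 8-week replicates 1 and 2 these counts were 7 higher (23.3%) and 1 lower, against 4.28% higher and 834 of 17567 lower over all genes.

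The members' differences leaned positive. A total of 23 members had a positive difference and 7 a negative one, with a median of 0.40, beside 52% positive and a median of 0.02 over all genes. Without 8-week replicate 2 the median was 0.45 and without 8-week replicates 1 and 2 it was 0.32, with 23 and 22 positive, against 46.1% and 42.5% of all genes. Only Hsd17b7 and Scarb1 had groups that did not overlap, both higher in 80-week livers, where 8.39% of all genes were separated, 4.63% upward and 3.76% downward. The 8-week arrays also varied more. The SD was larger in the 8-week group for 26 of 30 members and for 67.0% of all genes, with median SDs over the members of 0.66 at 8 weeks and 0.25 at 80 weeks, against 0.40 and 0.28 over all genes. The 8-week SDs include replicates 1 and 2, which lay apart from the rest of their group on the first principal component. They were not computed without that pair, so the wider spread may rest on it.

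**Figure D1:**
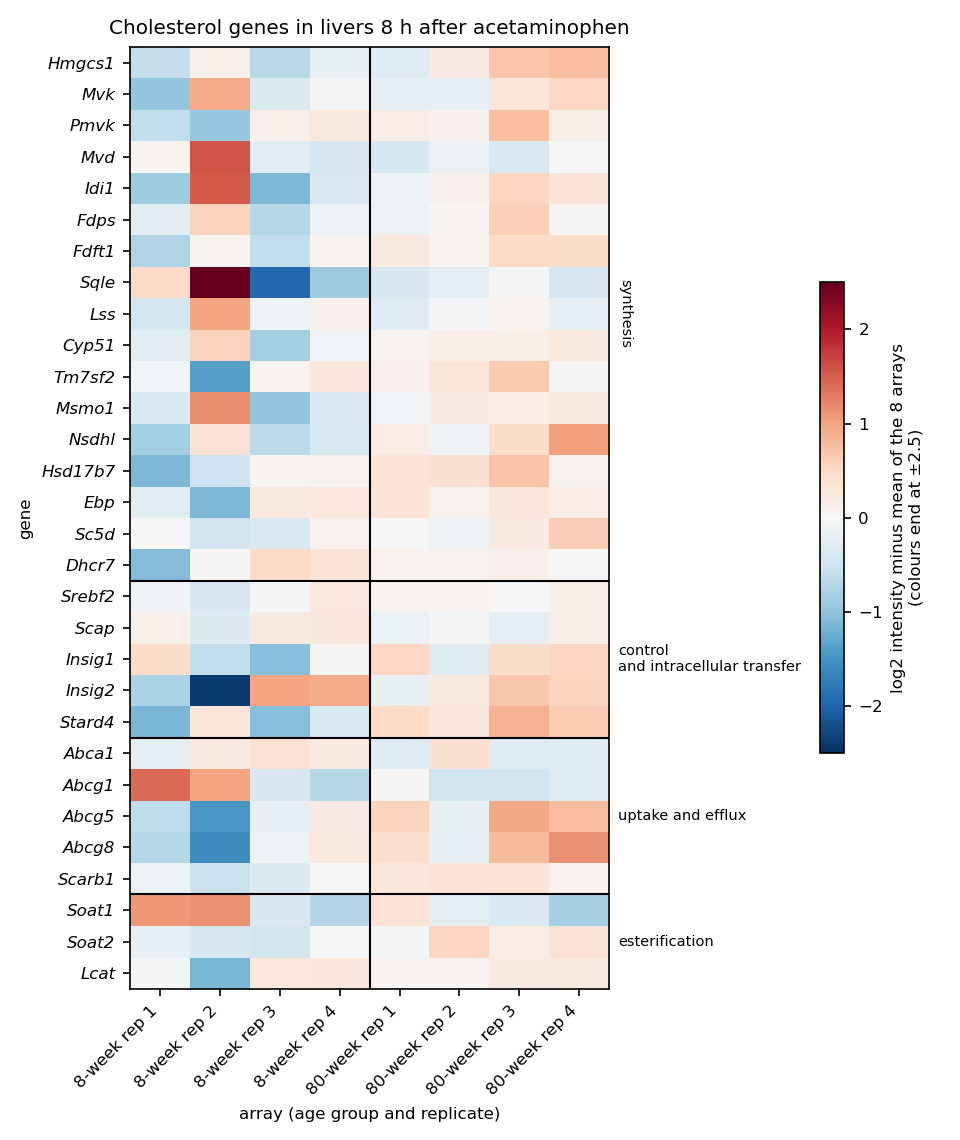
Log2 intensity of the 30 members (rows, grouped by role) on each of the 8 arrays (columns), minus the gene's mean over the arrays; red is above that mean, blue below, and colours end at the limit printed on the scale. Sqle, Idi1 and Mvd were highest of the 8 arrays in 8-week replicate 2, whereas Insig2, Abcg5 and Abcg8 were lowest there.

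Among the enzymes that lead from acetyl-CoA to squalene, 6 of 7 tested members had positive differences, with a median of 0.42. Hmgcs1, which makes the HMG-CoA from which mevalonate is formed, read 4.03, 4.76, 3.94 and 4.45 in 8-week replicates 1 to 4 and 4.32, 4.84, 5.32 and 5.41 in 80-week replicates 1 to 4. Replicates 2 to 4 of the 80-week group lay above every 8-week array, and replicate 1 lay within their range. The means were 4.30 ± 0.38 and 4.97 ± 0.50 (SD, n = 4 each), a difference of 0.68 (SE 0.29) with a limma adjusted p of 0.352. Fdft1, squalene synthase, which commits isoprenoids to sterols, read 2.23, 3.03, 2.38 and 3.07 in the 8-week livers and 3.23, 3.04, 3.50 and 3.45 in the 80-week livers. Only 80-week replicate 2 fell within the 8-week range. Its difference was 0.62 (SE 0.24, limma adjusted p = 0.323), a second Fdft1 probe gave 0.53, and without 8-week replicates 1 and 2 the value was 0.58.

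Idi1, the isomerase that activates the isoprenoid unit, showed the array dependence plainly. Its 8-week values were 0.99, 3.42, 0.75 and 1.49, and its 80-week values 1.76, 1.98, 2.40 and 2.19. The array of 8-week replicate 2 was the highest of the 8, and the other 3 of its group were below every 80-week array. The difference of 0.42 (SE 0.52, limma adjusted p = 0.717) became 1.005 without 8-week replicate 2 (adjusted p = 0.201) and 0.96 without 8-week replicates 1 and 2 (adjusted p = 0.382). Mvd, which decarboxylates mevalonate pyrophosphate, read -1.62, -0.12, -1.97 and -2.12 against -2.13, -1.83, -2.08 and -1.68. Its high value also came from 8-week replicate 2, and its difference of -0.47 (adjusted p = 0.598) was 0.12 without 8-week replicates 1 and 2. The farnesyl diphosphate synthase Fdps differed by 0.28, and by 0.51 without 8-week replicate 2 and 0.56 without 8-week replicates 1 and 2. The mevalonate kinase Mvk differed by 0.21, with a second probe at -0.04, and was -0.07 without 8-week replicate 1 and 0.55 without 8-week replicate 2. Pmvk, the next kinase, differed by 0.60 on both of its probes and by 0.11 without 8-week replicates 1 and 2.

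The thiolase Acat2, which starts the pathway, had no probe of its own name. A probe named Acat3 lists the Acat2 transcript, and the array cannot tell these near-identical genes apart. It read 3.93, 3.44, 4.56 and 5.34 at 8 weeks and 5.50, 5.24, 5.71 and 5.70 at 80 weeks, with only 8-week replicate 4 inside the 80-week range. The difference was 1.22 (SE 0.37, limma adjusted p = 0.252), and 0.59 without 8-week replicates 1 and 2.

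From squalene to cholesterol, 8 of 10 members had positive differences, with a median of 0.34. Sqle, squalene epoxidase, the first oxygen-dependent step of the pathway, read 0.31, 3.30, -2.13 and -1.06 in the 8-week livers and -0.57, -0.40, -0.21 and -0.59 in the 80-week livers. Replicates 1 and 2 of the 8-week group were above all 80-week arrays and replicates 3 and 4 below all of them. The SD was 2.35 at 8 weeks and 0.17 at 80 weeks. The difference of -0.55 had a 95% interval from -2.69 to 1.59 (limma adjusted p = 0.806), and it was 1.15 without 8-week replicates 1 and 2 (adjusted p = 0.353), so these 8 arrays did not settle its direction. The probe lies at chr15:59162688-59162747 on the plus strand of mm9.

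Hsd17b7 and Nsdhl, which help strip the methyl groups from the sterol nucleus, had the largest positive differences of the late enzymes. For Hsd17b7 the 8-week values were 2.97, 3.57, 4.16 and 4.18 and the 80-week values 4.41, 4.48, 4.81 and 4.19. The groups did not overlap, although 8-week replicate 4 and 80-week replicate 4 were almost equal. Its difference was 0.75 (SE 0.29, limma adjusted p = 0.321) and fell to 0.30 without 8-week replicates 1 and 2. Nsdhl read -2.31, -1.09, -2.11 and -1.84 against -1.27, -1.58, -0.998 and -0.43, and overlapped through 8-week replicate 2. It differed by 0.77 (SE 0.33, limma adjusted p = 0.345), and by 0.91 without 8-week replicates 1 and 2. With an alternative background correction Nsdhl differed by 0.38, less than Tm7sf2 at 0.54 and Ebp at 0.43, while Hsd17b7 was at 0.73.

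Several other late enzymes followed Sqle in their high 8-week replicate 2. Msmo1, the methylsterol oxidase, read 3.84, 5.39, 3.27 and 3.84 against 4.15, 4.44, 4.41 and 4.47, a difference of 0.28 that was 0.82 without 8-week replicates 1 and 2. Its other probes, weaker in signal, gave 0.05 and 0.62 over the 8 arrays. Cyp51, the lanosterol demethylase, differed by 0.31, and by 0.62 without 8-week replicates 1 and 2. Lss, which closes the sterol rings, read 1.63, 3.05, 1.93 and 2.16 against 1.73, 2.01, 2.13 and 1.82. Its difference was -0.26 (limma adjusted p = 0.691), and its 3 probes disagreed in sign, at -0.26, -0.24 and 0.22. By contrast the sterol reductase Tm7sf2 and the isomerase Ebp were lowest in 8-week replicate 2, at 3.997 and 5.99. Their differences of 0.54 and 0.44 were 0.10 and -0.04 without 8-week replicates 1 and 2. The desaturase Sc5d differed by 0.38, and Dhcr7, which carries out a final reduction, by 0.13, with 8-week replicate 1 its lowest array at -0.96. Without that array Dhcr7 turned to -0.20, and without 8-week replicates 1 and 2 to -0.33, while Sc5d was 0.33.

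**Figure D2:**
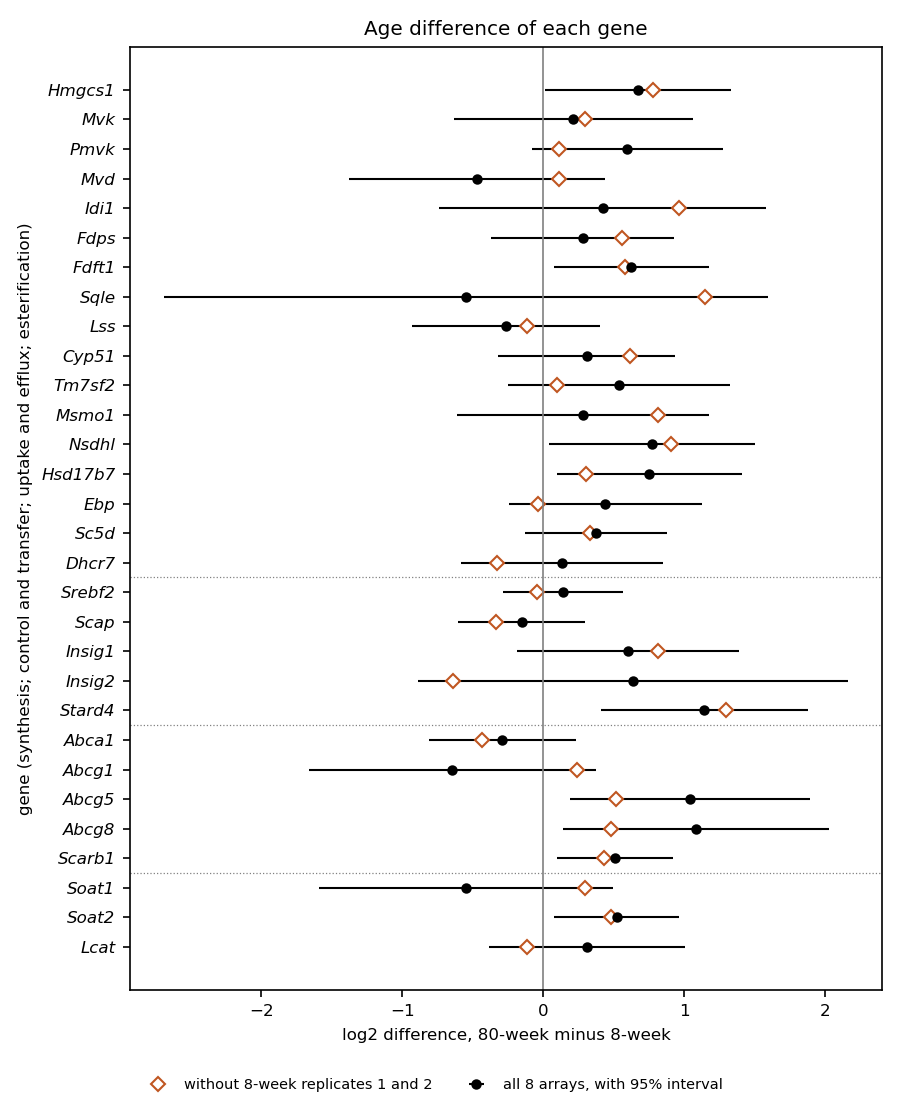
Log2 difference, 80-week minus 8-week, for each of the 30 members with its 95% interval from limma, beside the value without 8-week replicates 1 and 2. Stard4, Abcg8 and Abcg5 have the largest positive values at 1.14, 1.08 and 1.04, and the interval of Sqle is the widest.

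In the group of control and intracellular transfer, 4 of 5 members had positive differences, with a median of 0.60 that was 0.02 without 8-week replicate 2. Stard4, a soluble carrier that moves cholesterol between membranes, had the smallest p of all members. Its 8-week values were 0.07, 1.53, 0.14 and 0.83 and its 80-week values 1.71, 1.50, 2.09 and 1.86. Only 8-week replicate 2 reached the 80-week range. The means were 0.64 ± 0.68 and 1.79 ± 0.25 (SD, n = 4 each), a difference of 1.14 (SE 0.33, 95% interval 0.41 to 1.88), or 2.21-fold. The unadjusted p was 0.00614 and the limma adjusted p 0.226. Without 8-week replicate 2 it differed by 1.44 (limma adjusted p = 0.0794). With arrays weighted by how closely they followed their own age group in these same data, it differed by 1.34 (limma adjusted p = 0.0380). That weighted fit was the only one of 20 alternative settings in which a member passed the threshold, and it called 172 genes in all where the unweighted fit called 63. A second Stard4 probe, weaker in signal, gave 0.65.

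The SREBP pathway's own regulators gave smaller differences than Stard4, and Insig2 had the widest spread among them. Insig2, an INSIG form abundant in liver, read 5.24, 3.63, 7.02 and 6.95 in the 8-week livers and 5.84, 6.27, 6.70 and 6.59 in the 80-week livers. Replicates 1 and 2 of the 8-week group were below all 80-week arrays and replicates 3 and 4 above them, the reverse of Sqle. Its difference was 0.64 (SE 0.68, limma adjusted p = 0.677) and -0.64 without 8-week replicates 1 and 2. All 3 Insig2 probes gave positive values over the 8 arrays, at 0.64, 0.68 and 0.34. Insig1, itself a target of SREBP-2, read 0.72, -0.36, -0.79 and 0.29 against 0.78, -0.06, 0.73 and 0.81, a difference of 0.60 (SE 0.35, adjusted p = 0.442). It was 0.82 without 8-week replicates 1 and 2. Srebf2 differed by 0.14 (SE 0.19), with a second probe at -0.47, and Scap by -0.15 (SE 0.20). Without that pair these were -0.05 and -0.33, so the sign of Srebf2 turned.

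Among the 5 genes of uptake and efflux, 3 had positive and 2 negative differences, with a median of 0.51. Scarb1, the receptor SR-BI that takes cholesterol from high-density lipoprotein, read 4.61, 4.19, 4.39 and 4.72 in the 8-week livers and 5.01, 5.06, 5.05 and 4.83 in the 80-week livers. All 80-week values were above all 8-week values. The means were 4.48 ± 0.24 and 4.99 ± 0.11 (SD, n = 4 each), a difference of 0.51 (SE 0.18), or 1.42-fold, with a limma adjusted p of 0.305. The value was 0.43 without 8-week replicates 1 and 2, and a second probe gave 0.41. The main probe lies at chr5:125757483-125757542 on the minus strand of mm9.

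Abcg5 and Abcg8 encode the paired subunits of the transporter that secretes sterols into bile. Abcg5 read 4.27, 3.44, 4.71 and 5.11 against 5.47, 4.72, 5.84 and 5.67. Abcg8 read 2.04, 1.18, 2.62 and 3.01 against 3.20, 2.54, 3.54 and 3.90. Both were lowest in 8-week replicate 2, next lowest in 8-week replicate 1, and overlapped through 80-week replicate 2. Abcg5 differed by 1.04 (SE 0.38, 2.06-fold, limma adjusted p = 0.305) and Abcg8 by 1.08 (SE 0.42, 2.12-fold, adjusted p = 0.320). Without 8-week replicates 1 and 2 these were 0.51 and 0.48. The hepatocyte marker mean was also lowest in 8-week replicate 2, and its part in these values was not tested.

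The efflux pumps that load lipoproteins with cholesterol had negative differences. Abca1 read 3.48, 3.96, 4.08 and 3.93 in the 8-week livers and 3.39, 4.10, 3.40 and 3.40 in the 80-week livers, so that all 80-week arrays but replicate 2 were below the 8-week group. Its difference was -0.29 (SE 0.23, limma adjusted p = 0.567), and -0.43 without 8-week replicates 1 and 2. Abcg1, more abundant in macrophages than in hepatocytes, read 1.49, 1.06, -0.33 and -0.65 against 0.09, -0.43, -0.44 and -0.24. Both high values were 8-week replicates 1 and 2. The difference was -0.64 (SE 0.45, adjusted p = 0.516) and 0.24 without them.

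Of the esterification genes, Soat1, the acyltransferase of macrophages and many other cells, had the same pattern as Abcg1. Its values were 0.46, 0.53, -1.03 and -1.36 at 8 weeks and -0.26, -0.87, -0.996 and -1.46 at 80 weeks. The difference was -0.55 (SE 0.46, limma adjusted p = 0.595), or 0.30 without the high pair. Of 6 monocyte and macrophage markers 5 were tested, and their gene-centred mean was 0.23, 0.42, -0.37 and -0.16 in the 8-week arrays and 0.40, -0.33, -0.03 and -0.15 in the 80-week arrays, which was also higher in 8-week replicates 1 and 2 than in replicates 3 and 4. Their summed linear level ran from 70.2 to 137.4 and from 68.6 to 155.9 in the 2 groups. The 5 Kupffer cell markers had means of 0.44, -0.17, -0.66 and 0.00 against 1.13, -0.44, 0.02 and -0.33, and summed levels from 49.6 to 154.6 and from 61.0 to 239.6. All 10 of these markers tested were above background on all arrays, and their part in the Abcg1 and Soat1 values was not tested.

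Soat2, the acyltransferase that forms cholesteryl ester in hepatocytes, read 3.18, 2.99, 2.93 and 3.40 against 3.36, 3.91, 3.57 and 3.75. Only 8-week replicate 4 reached into the 80-week range. It differed by 0.52 (SE 0.20, limma adjusted p = 0.309), by 0.57 on a second probe and by 0.48 without 8-week replicates 1 and 2. Lcat, secreted by the liver to esterify cholesterol on lipoproteins, differed by 0.31 over all arrays and by -0.11 without them.

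**Figure D3:**
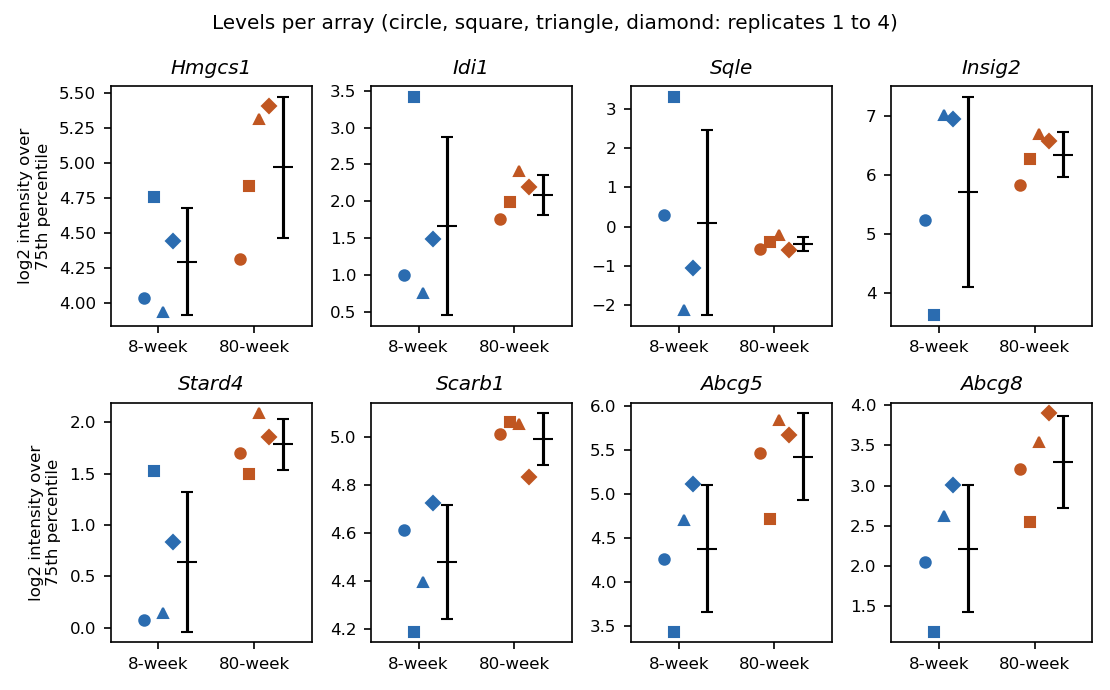
Log2 intensity over the array's 75th percentile for 8 members, 1 point per array (the marker shape gives the replicate), with the group mean and SD as bars; each panel has its own vertical scale. Scarb1 is separated between groups, Stard4 overlaps through 8-week replicate 2, and the 8-week values of Sqle and Insig2 lie on both sides of the 80-week values.

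Synthesis was then set against uptake and efflux. The 17 synthesis genes had a median difference of 0.38 (range -0.55 to 0.77), with 14 positive, and the 5 uptake and efflux genes one of 0.51 (range -0.64 to 1.08), with 3 positive. The median of the 5 uptake and efflux genes was the value of Scarb1, their middle gene and the only uptake receptor among them. The efflux genes split in sign, with Abcg5 and Abcg8 positive and Abca1 and Abcg1 negative, so this median does not describe efflux alone. The gap between the medians was -0.13. Leaving out 1 array at a time moved it between -0.28 and 0.10, and the positive value came from leaving out 8-week replicate 2. The data thus gave no order of the 2 arms that held on every such subset. Of the synthesis genes 0 passed the adjusted threshold and 4 were higher at an unadjusted p under 0.05, and of the uptake and efflux genes 0 passed and 3 were higher, where 7.92% of all genes were. Without 8-week replicates 1 and 2 these unadjusted counts were 5 of 17 and 1 of 5, where 4.28% of all genes were higher. No gene of either arm was lower at that threshold in these fits, against 6.14% of all genes over the 8 arrays.

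Averaged over the synthesis genes after centring each gene, the arrays read -0.47, 0.41, -0.45 and -0.08 at 8 weeks and -0.03, 0.055, 0.34 and 0.24 at 80 weeks. The highest and the lowest array were both 8-week livers. For uptake and efflux the values were -0.06, -0.47, -0.14 and -0.01 against 0.20, -0.04, 0.24 and 0.27, with 8-week replicate 2 lowest. The synthesis mean minus the uptake and efflux mean was -0.41, 0.88, -0.31 and -0.07 in the 8-week arrays and -0.23, 0.09, 0.10 and -0.04 in the 80-week arrays. The widest gap of the 8 was therefore in 8-week replicate 2, where synthesis was high while uptake and efflux were low. The other 8-week arrays ran from -0.41 to -0.07 and the 80-week arrays from -0.23 to 0.10.

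**Figure D4:**
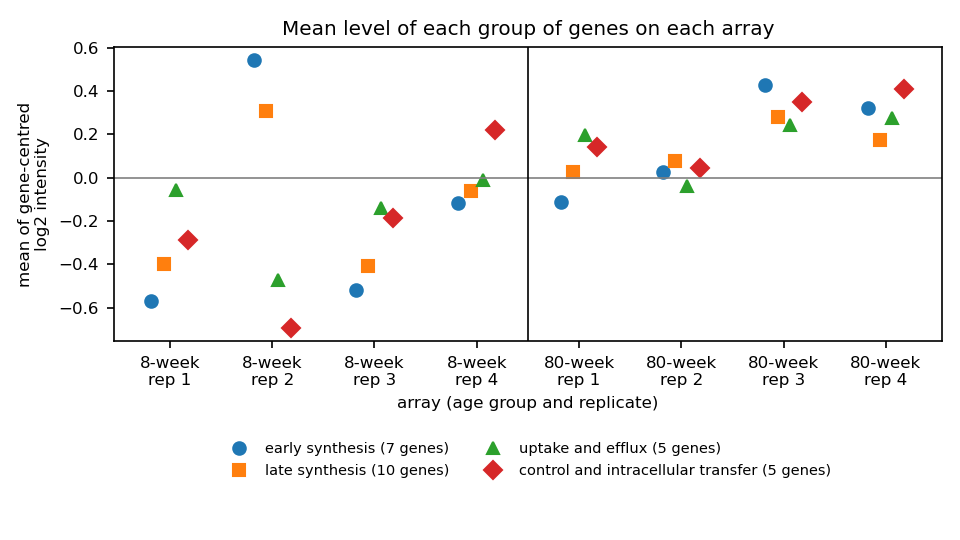
Mean gene-centred log2 intensity of early synthesis (7 genes), late synthesis (10), uptake and efflux (5) and control and intracellular transfer (5) on each of the 8 arrays. In 8-week replicate 2 early synthesis stood at 0.54 and late synthesis at 0.31, while uptake and efflux stood at -0.47 and control at -0.69, the widest spread of any array.

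Within synthesis, 8-week replicate 2 was the highest of the 8 arrays for 7 of 17 genes, against 20.2% of all genes, and the lowest for 4, against 35.1% of all genes. Set against the mean of the other 8-week arrays, 12 synthesis genes were higher in it and 5 were lower, with a median of -0.17 and a central 95% from -1.70 to 1.49 over all genes. Sqle stood 4.26 above its group's other arrays, Idi1 2.34, Mvd 1.78, Msmo1 1.74, Mvk 1.37 and Lss 1.14. The 5 lower genes were Pmvk, Tm7sf2, Hsd17b7, Ebp and Sc5d, with Tm7sf2 at -1.46 and Ebp at -1.21. Outside synthesis, Insig2 stood at -2.78, Abcg8 at -1.38, Lcat at -1.32 and Abcg5 at -1.26. This was 1 array, and what set it apart was not tested.

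Promoter sequence is shown for 4 synthesis genes and for the paired sterol transporters, because the synthesis genes Mvk, Idi1 and Hmgcs1 were highest of the 8-week group in replicate 2, Hsd17b7 was not, and Abcg5 and Abcg8 were lowest there. RefSeq promoter windows (GRCm38.p6, from 250 bases before to 50 after a start) were matched by symbol for 24 of the 31 genes, in 31 windows. The 250 bases before the start are printed 5′ to 3′ on the gene's strand, and capitals mark CCAAT on either strand (read as ATTGG on the other) and, in Hmgcs1, the sterol element TCACNCCAC. The positions are chr13:119690101-119690350 plus strand for Hmgcs1, chr5:114444019-114444268 plus strand for Mvk, chr13:8885356-8885605 plus strand for Idi1, and chr1:169969206-169969455 minus strand for Hsd17b7. For Abcg5 and Abcg8, which are transcribed away from each other, the 109 bases between the Abcg5 start and an Abcg8 start are given, at chr17:84683012-84683120 on the plus strand, the strand of Abcg8.
Hmgcs1: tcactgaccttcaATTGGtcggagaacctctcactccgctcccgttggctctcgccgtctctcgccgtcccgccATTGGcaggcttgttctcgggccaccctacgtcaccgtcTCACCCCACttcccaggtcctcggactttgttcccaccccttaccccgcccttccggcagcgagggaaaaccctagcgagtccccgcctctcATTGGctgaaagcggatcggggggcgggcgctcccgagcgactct
Mvk: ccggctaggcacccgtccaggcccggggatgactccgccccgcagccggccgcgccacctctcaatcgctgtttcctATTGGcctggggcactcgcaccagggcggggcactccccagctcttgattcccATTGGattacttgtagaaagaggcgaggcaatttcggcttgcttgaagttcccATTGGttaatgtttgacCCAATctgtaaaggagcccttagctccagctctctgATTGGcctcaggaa
Idi1: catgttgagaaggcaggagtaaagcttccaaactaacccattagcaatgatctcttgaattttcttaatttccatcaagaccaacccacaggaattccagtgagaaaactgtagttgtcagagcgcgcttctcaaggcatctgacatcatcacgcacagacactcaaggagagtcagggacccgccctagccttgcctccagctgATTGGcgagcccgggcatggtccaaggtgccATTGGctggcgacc
Hsd17b7: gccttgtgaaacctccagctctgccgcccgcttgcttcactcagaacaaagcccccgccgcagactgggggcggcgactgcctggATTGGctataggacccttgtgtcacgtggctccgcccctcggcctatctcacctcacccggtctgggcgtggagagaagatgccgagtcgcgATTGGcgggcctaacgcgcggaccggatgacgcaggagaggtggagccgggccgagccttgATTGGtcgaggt
Abcg5 and Abcg8: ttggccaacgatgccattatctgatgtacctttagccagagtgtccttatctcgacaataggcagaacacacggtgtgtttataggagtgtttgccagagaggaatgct

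The Mvk stretch held 5 CCAAT matches, those of Hmgcs1 and Hsd17b7 3 each, and that of Idi1 2. The shorter Abcg5 and Abcg8 stretch held 0, but CCAAT was present in the full windows of both genes, with 1 match in that of Abcg5 and 2 in that of the nearer Abcg8 start. The Abcg5 match was the same site as 1 of the 2 Abcg8 matches, read on the other strand. It began at the Abcg5 start itself and not before it. In the full windows, CCAAT was found in 14 of 15 synthesis genes and in 14 of their 18 windows, against 37.4% of all 32851 windows. Of the uptake and efflux genes 2 of 3 had it, in 2 of 4 windows, with the shared site counted for both Abcg5 and Abcg8. The GC box GGGCGG, on either strand, was in 15 of those 18 windows, against 35.7% of all windows. TCACNCCAC was in 1 window, that of Hmgcs1, against 1.24% of all, and the E-box CANNTG was in 14 of 18 synthesis windows, against 72.3%. With CCAAT in 14 of 15 synthesis genes, matches in Hmgcs1, Mvk and Idi1 as well as in Hsd17b7 say nothing about 8-week replicate 2. Any link of the matches to that array was not tested. These are matches of letters and not mapped binding sites. The genes without a window were Fdps, Fdft1, Sqle, Stard4, Abcg1, Scarb1 and Soat2.

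A wider list of 44 genes of sterol handling, covering sterol sensing, bile acid synthesis, lipoprotein uptake and related lipid genes, was tested in the same fit. Its genes too were chosen with earlier results of these data known. None passed the adjusted threshold (limma, smallest adjusted p = 0.172), and at an unadjusted p under 0.05, 8 were higher (18.2%) and 2 lower, beside 7.92% and 6.14% of all genes. Without 8-week replicates 1 and 2 these counts were 5 (11.4%) and 1, beside 4.28% of all genes higher and 834 of 17567 lower. Of these genes 29 had positive (65.9%, against 52% of all genes) and 15 negative differences, with a median of 0.21 that was 0.06 without that pair of arrays. Cyp7b1, the oxysterol hydroxylase of the alternative bile acid pathway, read 3.96, 2.01, 4.12 and 4.48 against 6.16, 6.12, 5.26 and 5.13, with no overlap. It differed by 2.03 (SE 0.52, adjusted p = 0.172) and by 1.37 without 8-week replicates 1 and 2. Lpin1, a phosphatidate phosphatase that also acts on SREBP in the nucleus, differed by 2.43 (SE 0.83, adjusted p = 0.291) and by 0.93 without them, and Cd36, a fatty acid and lipoprotein receptor, by 1.61 and 1.11. At the negative end were Ch25h, which makes 25-hydroxycholesterol, at -0.65, Tmem41b, an endoplasmic reticulum lipid scramblase, at -0.64, and Nus1, a subunit of the dolichol-forming prenyltransferase, at -0.55 with no overlap between groups. Ch25h turned to 0.15 without 8-week replicates 1 and 2, when Tmem41b was at -0.32 and Nus1 at -0.35.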

How the data were processed

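Total RNA of 8 mouse liver samples was measured on Agilent single-colour arrays. The authors deposited scanner files whose intensity values had been background-corrected with Feature Extraction 10.7.3.1, per the file headers, or version 9.1, per the submitters' processing notes. The authors also deposited a series table of intensity values, which lay within 1% of that signal for 100% of 56605 probes and served as an alternative.

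The processed signal was taken as log2. After removal of 59 to 97 outlier spots per array, repeated spots were averaged and the array's 75th percentile (154.7 to 352.8 intensity units) was subtracted. A gene was its brightest probe well above background on at least 4 of 8 arrays. Of 58 member probes 50 passed, and 17 members had several, which differed in sign in 3 (Lss, Mvk and Srebf2). The ages were compared over 17567 genes with limma 3.58.1 in R 4.3.3 (lmFit, eBayes, Benjamini-Hochberg, threshold 0.05), tested on simulated data. The number of arrays limits the precision. All members are named, and of the wider sterol list the 3 largest positive and 3 largest negative differences, with any past the threshold (0). Of 55 markers in 10 cell type lists, 46 were tested and 1 passed (Jchain, of B and plasma cells). Members and lists were chosen with earlier results of these data known. Probe positions come from the scanner files (mm9), and no annotation of that build was used to place them in exons. Replicate numbers were not treated as pairs. By the scan names, arrays of the same replicate number shared a slide column. Same-numbered deviations correlated at 0.026, 0.141, 0.114 and 0.104. All of these were positive, though within the range of differently numbered ones (-0.214 to 0.232), which took both signs. Alternatives covered background correction, scaling, filters, probe choice, variance prior, array weights, the replicate block, outlier spots, the deposited table and omitted arrays.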

Additional observations from a re-analysis of the deposited data

Results flagged for a closer look

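Each member's 4 values per age were examined for 1 array far from the other 3, by the gap to its neighbour over the whole range of the group. An array stood apart in 3 of 60 groups, or 5%, which is the share that chance gives. All were 80-week arrays, and 0 were 8-week replicate 2. Pmvk was highest in 80-week replicate 3, at 4.44 with the next at 3.88. Insig1 was lowest in 80-week replicate 2, at -0.063 with the next at 0.73. Abca1 was highest in 80-week replicate 2, at 4.10 with the next at 3.40, and the other 80-week arrays were all below the 8-week group.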

How the results depend on the processing

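Over 20 alternative settings, 19 members kept their sign, 11 changed it in at least 1, and 1 passed the threshold in at least 1 (Stard4, with array weights). The count of genes past the threshold, 63 over all 17567, was 21 (20 higher, 1 lower) with probes above background on all arrays, where fewer genes were tested, 172 (136 and 36) with array weights and 14 (12 and 2) without 8-week replicates 1 and 2, where fewer samples were used. Leaving out 1 array at a time gave 27 to 77, with 27 without 8-week replicate 1, 38 without 80-week replicate 3 and 39 without 80-week replicate 4. No synthesis gene, no uptake or efflux gene and no gene of the wider sterol list passed in any setting. The synthesis median ran from 0.27 to 0.52 and the uptake and efflux median from 0.41 to 0.59 over these settings. The Scarb1 difference, which was that second median in the main fit, had the same range of 0.41 to 0.59. Scaling arrays to their medians moved the median over all genes from 0.02 to -0.09, with the synthesis median then at 0.27 and the uptake and efflux median at 0.41.

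With the replicate number as a block, 70 genes and 0 members passed, with adjusted p-values of 0.111 for Abcg5 and 0.0896 for Abcg8, and the block changed no member's call.

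Signs turned for Srebf2 (-0.17) with the mean of a gene's probes. With array weights they turned for Mvd (0.029), Sqle (0.94), Dhcr7 (-0.21), Srebf2 (-0.0016), Insig2 (-0.34), Soat1 (0.031) and Lcat (-0.040). Without 8-week replicates 1 and 2 they turned for Mvd (0.12), Sqle (1.15), Ebp (-0.036), Dhcr7 (-0.33), Srebf2 (-0.046), Insig2 (-0.64), Abcg1 (0.24), Soat1 (0.30) and Lcat (-0.11). With 1 array left out, Mvk ran from -0.071 to 0.55, Sqle from -1.29 to 0.52, Lss from -0.45 to 0.022, Dhcr7 from -0.20 to 0.31, Insig2 from -0.058 to 1.07 and Lcat from -0.018 to 0.45. The cause was not tested. All 30 members were above background on all 8 arrays.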
